A study of Mus musculus with 6 samples.

Results

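The SOX family was followed across 6 expression arrays of tumour epithelial cells, 3 from Sox2cKO mice and 3 from CTRL mice. The members were the 10 genes Sox2, Sox21, Sox4, Sox11, Sox5, Sox6, Sox13, Sox9, Sox7 and Sox15, taken with every probe set annotated to exactly 1 of them. They make up 35 of the 34945 probe sets with 1 gene, and 10 of the 18193 genes those probe sets name. Sox2cKO cells came from K14CREER:SOX2fl/fl mice with skin papillomas, in which tamoxifen switches on a Cre recombinase expressed from the keratin 14 promoter, the promoter of basal keratinocytes, and floxed Sox2 is deleted in cells that express it. CTRL cells came from papillomas of control mice whose genotype the labels do not state further. The papillomas of both groups were benign and chemically induced, and both groups received tamoxifen for 1 week. Cells were sorted as positive for Epcam and alpha6 integrin and negative for CD45 (leukocytes), CD31 (endothelium) and CD140a (fibroblasts), and the labels give no age, sex or number of tumours per array. The question posed was how the family reads once Sox2 is lost, and whether any other member stands higher in its place.

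SOX proteins are transcription factors that share an HMG box, a DNA-binding domain that sits in the minor groove and bends the helix. They are sorted into groups by the sequence of that box. Sox2 (group B1) is an activator best known for maintaining stem and progenitor cells, and Sox21 (group B2) is its close relative that acts mostly as a repressor. Sox4 and Sox11 (group C) are activators of embryonic and progenitor programmes. Sox5, Sox6 and Sox13 (group D) lack an activation domain of their own, Sox9 (group E) maintains hair follicle stem cells, Sox7 (group F) is known from endothelium and early endoderm, and Sox15 is the lone member of group G.

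The promoters of Sox2, the deleted gene, and of Sox11, the member with the next largest difference, are shown because the results turn on these genes. Each line gives the 250 bases before the start of transcription, 5′ to 3′ on the gene's own strand, from RefSeq (GRCm38.p6). Capitals mark a match to ACAAAG or ACAATG, 6-base forms of the motif that SOX proteins bind, searched on both strands. These motifs cannot match at the same place. The Sox2 window is chr3:34649745-34649994 on the plus strand and the Sox11 window is chr12:27342719-27342968 on the minus strand.
Sox2: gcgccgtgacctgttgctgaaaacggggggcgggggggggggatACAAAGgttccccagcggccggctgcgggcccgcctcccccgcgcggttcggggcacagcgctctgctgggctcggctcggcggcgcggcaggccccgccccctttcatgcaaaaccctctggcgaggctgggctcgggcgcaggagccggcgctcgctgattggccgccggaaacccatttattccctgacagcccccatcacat
Sox11: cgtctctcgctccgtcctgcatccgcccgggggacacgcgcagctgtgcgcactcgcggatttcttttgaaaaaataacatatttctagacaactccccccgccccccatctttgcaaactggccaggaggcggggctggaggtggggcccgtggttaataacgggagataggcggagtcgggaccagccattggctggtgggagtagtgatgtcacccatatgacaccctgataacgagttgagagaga
The Sox2 window holds 1 match, which begins 206 bases before the start, and the Sox11 window holds 0. Windows were given for 8 members, and 7 of their 13 windows held a match, 5 of them among the 6 windows of Sox6. The share holding either motif was 25.2% over all 32851 windows given. A match describes these letters only.

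The arrays were alike in overall scale, with medians between 5.42 and 5.46 on the log2 scale. Markers of tumour epithelium were present on every array, and the list of 8 averaged 12.16 to 12.32 in Sox2cKO cells and 12.20 to 12.27 in CTRL cells. In Sox2cKO cells 5 of the 8 read higher and 3 lower. The sort marker Epcam read 11.24, 10.72 and 10.57 in Sox2cKO replicates 1, 2 and 3, against 11.07, 11.42 and 11.43 in CTRL replicates 1, 2 and 3 (difference -0.46). Itga6, the gene of alpha6 integrin, differed by 0.09. Groups did not overlap in 1 of 8, Krt6a (0.13), where this held for 5.85% of all genes. The groups also differed in their sex pattern. Xist, the RNA of the inactive X chromosome, read 7.54, 6.82 and 6.08 in Sox2cKO replicates 1, 2 and 3, against 7.30, 12.03 and 11.85 in CTRL replicates 1, 2 and 3. CTRL replicates 2 and 3 thus carried a female pattern that no other array had. Markers of fibroblasts averaged 8.42 to 9.78 in Sox2cKO cells and 7.38 to 8.24 in CTRL cells, with 9 of 9 tested genes higher in Sox2cKO cells and 5 of them at an unadjusted p under 0.05 (2 of 9 with groups that did not overlap). Over all genes tested 2.68% lay under that p and 5.85% did not overlap. Lum differed by 1.61, Dcn by 1.73 and Pdgfra, the gene of CD140a, by 1.02. Pdgfra read 5.49, 6.21 and 7.25 in Sox2cKO replicates 1, 2 and 3, against 5.52, 5.32 and 5.05 in CTRL replicates 1, 2 and 3, and its part in the results below was not tested. In sorted pools like these, fewer cells of a type and less RNA per cell cannot be told apart.

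Sox2 was the member that separated the groups. Its probe set, 1416967_at, read 4.07, 4.63 and 3.23 in Sox2cKO replicates 1, 2 and 3, against 7.19, 8.31 and 8.18 in CTRL replicates 1, 2 and 3. Every Sox2cKO array lay far below every CTRL array. The log2 difference was -3.92, with a standard error of 0.41 and a 95% interval of -4.89 to -2.95.

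All 3 Sox2cKO arrays read Sox2 below the 40th percentile of their own probe sets (near 4.91), so its level there is only a bound. Set against that percentile, the group means put Sox2 at least 7.91-fold lower in Sox2cKO cells, a bound that leaves out the spread between arrays. It stood 0.67, 1.33 and -0.15 log2 units above the mean of 3 bacterial trp control probe sets in Sox2cKO replicates 1, 2 and 3, against 3.75, 4.93 and 4.82 in CTRL replicates 1, 2 and 3. Among CTRL arrays the lowest Sox2 value was that of replicate 1, the CTRL array without the female pattern, and against that array alone the difference was -3.21.

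By limma over all 13222 genes tested the adjusted p of Sox2 was 0.316, so it did not pass the threshold of 0.05. Its unadjusted p of 2.39e-05 in limma ranked 1 among those genes. Sox2 passed the filter on low values through its CTRL arrays alone, so its p values and rank are a description. Without CTRL replicate 1 the log2 difference was -4.27 and the adjusted p 0.0425 in limma. That setting leaves only CTRL arrays with the female pattern, so group and sex pattern cannot be told apart in it. The other 14 alternatives gave adjusted p values above the threshold.

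Of the 10 member genes, 10 could be tested and 0 passed an adjusted p of 0.05 in limma, where 0% of all genes tested did. At an unadjusted p under 0.05 there was 1 member, Sox2, where 2.68% of all genes tested lay under it. That share is 354 genes, and 656 genes lay under it with the replicate number as a block. Groups did not overlap for 1 member, again Sox2, where this held for 5.85% of all genes. Only its 3 CTRL arrays lifted Sox2 past the filter on low values, so its p and its lack of overlap are a description and no test. Of the 9 other members 7 read lower and 2 higher in Sox2cKO cells. Their median log2 difference was -0.16, where the median of all genes tested was near 0 and 49.4% of genes read lower.

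**Figure D1:**
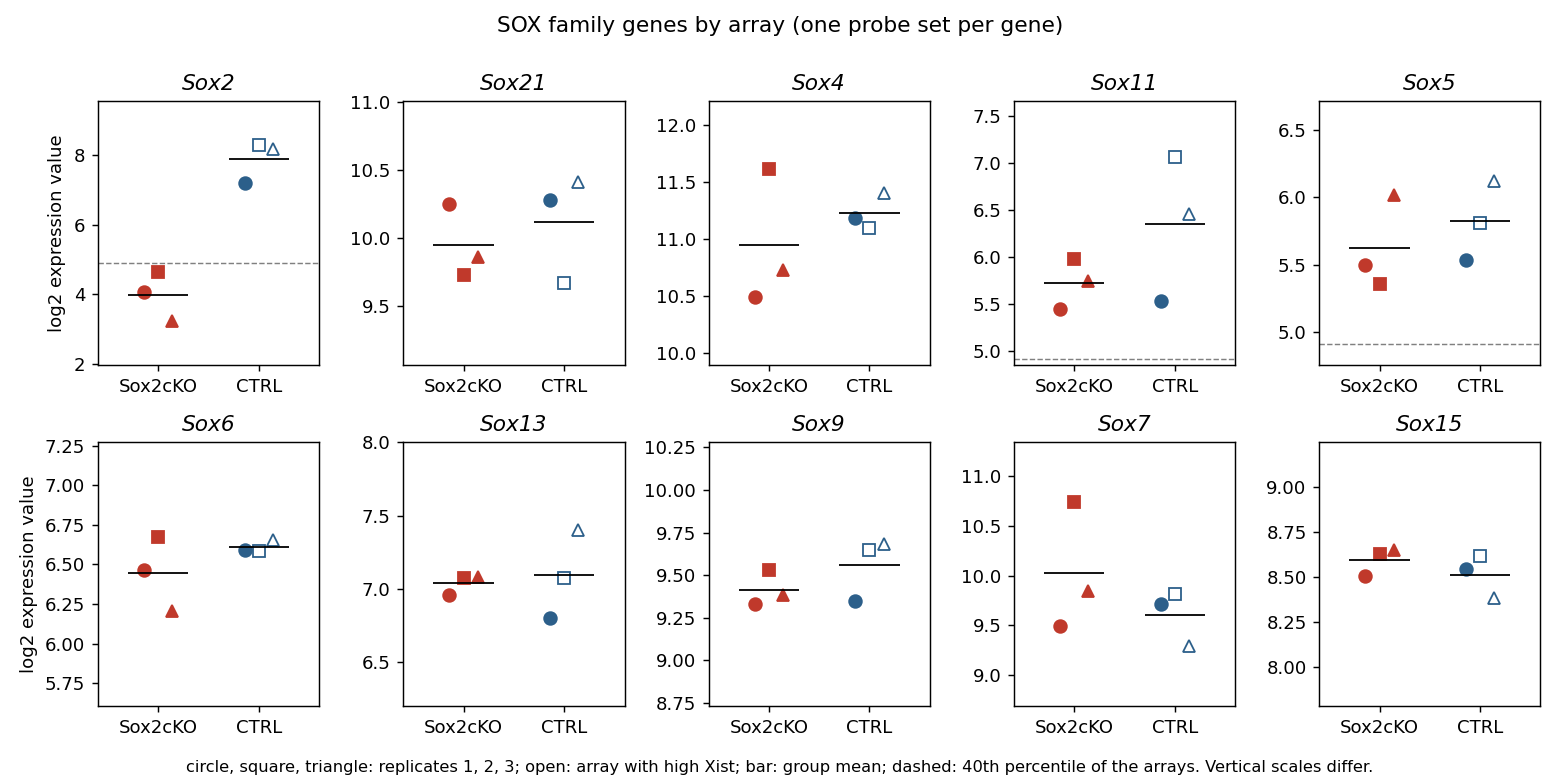
Log2 expression value of each SOX member on each array, 1 probe set per gene, with Sox2cKO left and CTRL right. Symbols are arrays by replicate number (circle, square and triangle for 1, 2 and 3), open symbols are the arrays with high Xist, and bars are group means. The dashed line is the 40th percentile of the arrays. Sox2 shows groups that do not overlap (3.23 to 4.63 in Sox2cKO and 7.19 to 8.31 in CTRL).

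At the level of probe sets, 23 of the 35 passed the filter on low values. Of these, 0 passed an adjusted p of 0.05 in limma, where 0% of the 23534 tested probe sets did. An unadjusted p under 0.05 was found for 3 member probe sets, that of Sox2 and 2 of Sox11, against 2.92% of all probe sets. The groups did not overlap in 1 of the 23, against 6.26% of all probe sets. That was the Sox2 probe set, which passed the filter through its 3 CTRL arrays alone. Of the 22 tested probe sets of other members, 18 read lower and 4 higher in Sox2cKO cells. The 12 probe sets that failed the filter belonged to Sox5 (6), Sox4 (2), Sox11 (2), Sox9 (1) and Sox7 (1).

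**Figure D2:**
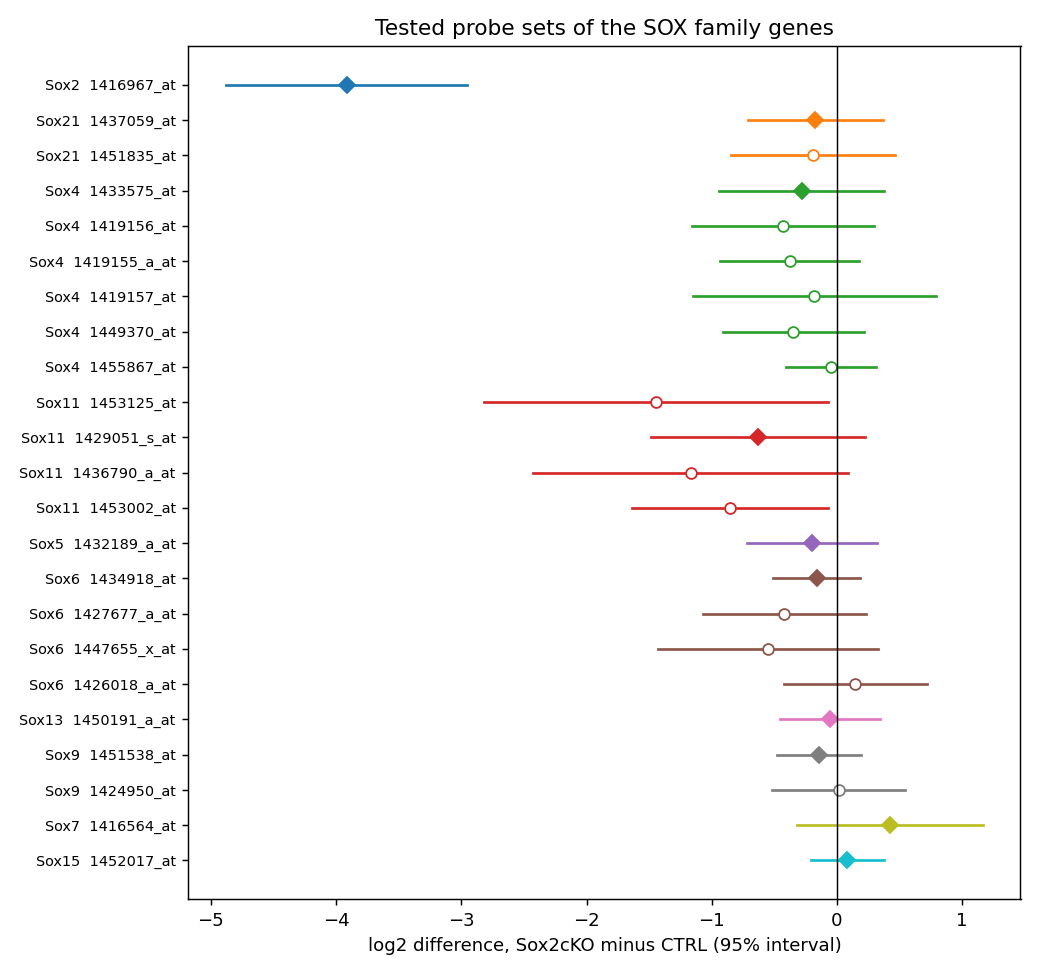
Log2 difference, Sox2cKO minus CTRL, with its 95% interval for the 23 tested probe sets of the SOX members. Filled diamonds mark the probe set that represents its gene and open circles the others. The interval of Sox2 (-4.88 to -2.95) lies apart from the rest.

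Sox21, the relative of Sox2 in group B, did not differ between groups beyond its spread. It read 10.25, 9.73 and 9.86 in Sox2cKO replicates 1, 2 and 3, against 10.28, 9.67 and 10.41 in CTRL replicates 1, 2 and 3. Both groups span nearly the same range. The log2 difference was -0.17 with a 95% interval of -0.71 to 0.37, which allows an increase of at most 1.29-fold. Its second probe set, 1451835_at, pointed the same way (-0.19), with a higher upper end (95% interval -0.84 to 0.46).

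Sox11 showed the largest difference after Sox2, and it followed the CTRL arrays with the female pattern. Its representative, 1429051_s_at, read 5.45, 5.98 and 5.74 in Sox2cKO replicates 1, 2 and 3, against 5.52, 7.07 and 6.46 in CTRL replicates 1, 2 and 3. CTRL replicates 2 and 3 were high, while CTRL replicate 1 lay among the Sox2cKO arrays. The difference was -0.63 with a standard error of 0.37 (adjusted p = 0.999 in limma).

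The largest difference within Sox11 was that of 1453125_at, which read 4.32, 5.88 and 5.11 in Sox2cKO replicates 1, 2 and 3, against 5.28, 7.37 and 6.99 in CTRL replicates 1, 2 and 3. Its difference was -1.45 with a standard error of 0.59 and an unadjusted p of 0.0418. For 1453002_at the difference was -0.85 with an unadjusted p of 0.0367, and neither passed after adjustment in limma (adjusted p = 1 for both). In 6 of 6 Sox11 probe sets, including the 2 that were too dim to test, CTRL replicates 2 and 3 stood above the other 4 arrays. These probe sets share the arrays and the transcript, so they are not separate results, and the share of all genes with this pattern was not counted. In the untested 1429372_at the groups did not overlap, since CTRL replicate 1 (4.63) lay just above Sox2cKO replicate 2 (4.62).

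Differences of these 6 probe sets ran between -1.45 and -0.54. Against CTRL replicates 2 and 3 they were -2.08 to -0.90, and against CTRL replicate 1 alone they were -0.43 to 0.20. The female pattern and a high Sox11 signal were thus carried by the same CTRL arrays, and what each contributes cannot be told apart with 1 CTRL array of the male pattern. Sox2 itself was also lowest among CTRL arrays in replicate 1.

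When arrays of the same replicate number were paired, Sox11 read lower in Sox2cKO in 18 of 18 comparisons (6 probe sets, 3 numbers). The 6 probe sets share the arrays and the transcript, so these are 3 pairs and not 18 separate results. The share of all genes with 3 pairs in one direction was not counted. With the replicate number as a block the unadjusted p of the 4 tested probe sets lay between 0.000554 and 0.0290, and the lowest adjusted p was 0.641, so no call changed. The tested probe sets of Sox11 agreed closely with each other over the arrays (Pearson r 0.84 to 0.97 over 6 arrays, a description, since they share the arrays and the transcript).

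**Figure D3:**
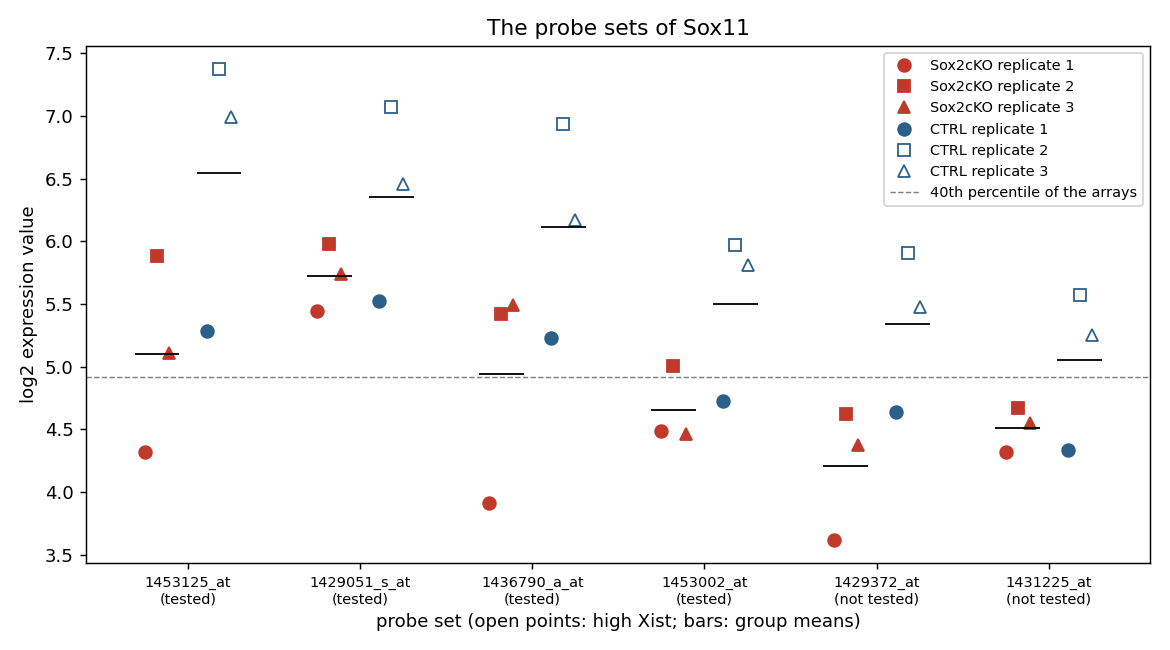
Log2 expression value of the 6 probe sets of Sox11, with Sox2cKO arrays in red and CTRL arrays in blue beside them. Symbols give the replicate number, open symbols the arrays with high Xist, bars the group means and the dashed line the 40th percentile of the arrays. In each probe set CTRL replicates 2 and 3 are the top values and CTRL replicate 1 lies near the Sox2cKO arrays.

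Sox4, the other group C gene, gave lower values in Sox2cKO replicates 1 and 3 but not in replicate 2. Its representative, 1433575_at, read 10.50, 11.62 and 10.73 in Sox2cKO replicates 1, 2 and 3, against 11.19, 11.10 and 11.41 in CTRL replicates 1, 2 and 3. Sox2cKO held both the highest and the lowest value. The difference was -0.28 with a 95% interval of -0.94 to 0.38.

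All 6 tested probe sets of Sox4 had negative differences, between -0.43 and -0.05. Sox2cKO replicate 2 was the highest array in 3 of them, and Sox2cKO replicate 1 the lowest in 4. Without Sox2cKO replicate 2 the representative differed by -0.62 (unadjusted p 0.00668, adjusted p 0.968 in limma). That array also had the highest mean of the 7 melanocyte markers tested of 8 (5 higher, 2 lower in Sox2cKO cells), at 6.80, with 6.05 and 5.27 in Sox2cKO replicates 1 and 3 and 5.67 to 6.09 in CTRL. Within the list Slc45a2 read 6.26 on that array, inside the range of the other arrays. Sox10, a melanocyte gene outside the list, read its lowest value there (6.76). The part of the melanocyte markers in the Sox4 values was not tested.

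Among the group D genes, Sox6 was lowest on Sox2cKO replicate 3. Its representative, 1434918_at, read 6.47, 6.67 and 6.20 in Sox2cKO replicates 1, 2 and 3, against 6.59, 6.59 and 6.65 in CTRL replicates 1, 2 and 3. Sox2cKO replicate 3 was the lowest array in 4 of 4 probe sets, with 4.39 in 1447655_x_at, where the other 5 arrays read 5.67 to 6.04. Sox2cKO replicate 1 also lay below every CTRL array in the representative, 1427677_a_at and 1447655_x_at, but within the CTRL range in 1426018_a_at. The difference of the representative was -0.16 (95% interval -0.50 to 0.18), and it was -0.04 without Sox2cKO replicate 3.

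The Sox6 probe sets did not all point one way, with differences of -0.55, -0.42 and -0.16 and, in 1426018_a_at, 0.15 (95% interval -0.42 to 0.72). Sox2cKO replicate 3 was also the array with the highest mean of fibroblast markers, at 9.78, with 8.42 and 8.83 in Sox2cKO replicates 1 and 2 and at most 8.24 in CTRL, and their part in the Sox6 values was not tested.

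Sox5 was measurable in 1 of its 7 probe sets, 1432189_a_at. It read 5.50, 5.36 and 6.02 in Sox2cKO replicates 1, 2 and 3, against 5.54, 5.81 and 6.12 in CTRL replicates 1, 2 and 3. The ranges overlapped and the difference was -0.20 (95% interval -0.72 to 0.32). It was 0.09 with the sex pattern as a covariate and lay between -0.39 (without Sox2cKO replicate 3) and -0.05 (without CTRL replicate 3) when 1 array was left out. Its other 6 probe sets exceeded the 40th percentile on 0 of 6 arrays.

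Sox13 read 6.96, 7.08 and 7.08 in Sox2cKO replicates 1, 2 and 3, against 6.80, 7.08 and 7.40 in CTRL replicates 1, 2 and 3. Its CTRL arrays enclosed the Sox2cKO arrays on both sides. The difference was -0.05 (95% interval -0.45 to 0.34), which was the smallest of the 10 members and turned to 0.10 without CTRL replicate 3 and to 0.24 with the sex pattern as a covariate.

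Sox9, the hair follicle stem cell factor, did not pass the test in either direction. Its representative, 1451538_at, read 9.33, 9.53 and 9.38 in Sox2cKO replicates 1, 2 and 3, against 9.35, 9.65 and 9.68 in CTRL replicates 1, 2 and 3. The groups overlapped through CTRL replicate 1. The difference was -0.14 with a 95% interval of -0.47 to 0.18, which allows an increase of at most 1.13-fold, and the second tested probe set, 1424950_at, differed by 0.01 (95% interval -0.52 to 0.55). With the sex pattern as a covariate the representative turned to 0.07, with an upper end of 1.43-fold.

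Sox7 was the member with the highest positive difference, which rested largely on Sox2cKO replicate 2. Sox7 read 9.50, 10.74 and 9.85 in Sox2cKO replicates 1, 2 and 3, against 9.71, 9.81 and 9.29 in CTRL replicates 1, 2 and 3. Sox2cKO replicate 2 stood above all other arrays, replicate 3 lay just above the CTRL range and replicate 1 within it. The difference was 0.42, with a standard error of 0.32 and a 95% interval of -0.32 to 1.17. It was 0.07 without Sox2cKO replicate 2 and 0.69 without Sox2cKO replicate 1. Sox2cKO replicate 2 also had the highest means of melanocyte markers (6.80) and of leukocyte markers (6.46), whose part in the Sox7 value was not tested.

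Sox7 is known from endothelium. Of 10 endothelial markers, 6 failed the filter on low values, among them Pecam1, Cdh5 and Tek, and the 4 tested (Plvap -0.09, Egfl7 0.04 and Kdr 0.03 among them) had a mean of 5.85 to 6.07 in Sox2cKO cells and 5.72 to 6.11 in CTRL cells. Egfl7, a protein secreted by endothelium, read 7.21 to 7.46 in Sox2cKO cells and 7.18 to 7.51 in CTRL cells, above the 40th percentile on every array. Sox17 and Sox18, the other group F genes, differed by -0.05 and 0.01 and averaged 4.92 and 5.20 in Sox2cKO cells, against 4.97 and 5.19 in CTRL cells.

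Sox15 had the smallest spread over the 6 arrays of the 10 members. It read 8.51, 8.63 and 8.65 in Sox2cKO replicates 1, 2 and 3, against 8.54, 8.61 and 8.38 in CTRL replicates 1, 2 and 3. The difference was 0.08 with a 95% interval of -0.20 to 0.36, an increase of at most 1.29-fold.

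Higher levels of the other SOX genes can be read from the upper ends of these intervals, taken gene by gene. The upper ends lay between 1.13-fold (Sox6 and Sox9) and 2.25-fold (Sox7), and for 8 of the 9 genes an increase of 2-fold lay outside the 95% interval. These are limits of the representative probe sets. Over all 22 tested probe sets of these genes 21 had an upper end under 2-fold, with 2.24-fold the highest, and that of Sox6 1426018_a_at was 0.72 on the log2 scale. None of these 9 genes passed the test in either direction. With the sex pattern as a covariate, which sets the Sox2cKO arrays against CTRL replicate 1 alone, the upper ends were 1.33-fold to 2.74-fold, and 8 of 9 still lay under 2-fold. The values are relative to each array's scale, so a shift shared by most genes would not be seen.

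**Figure D4:**
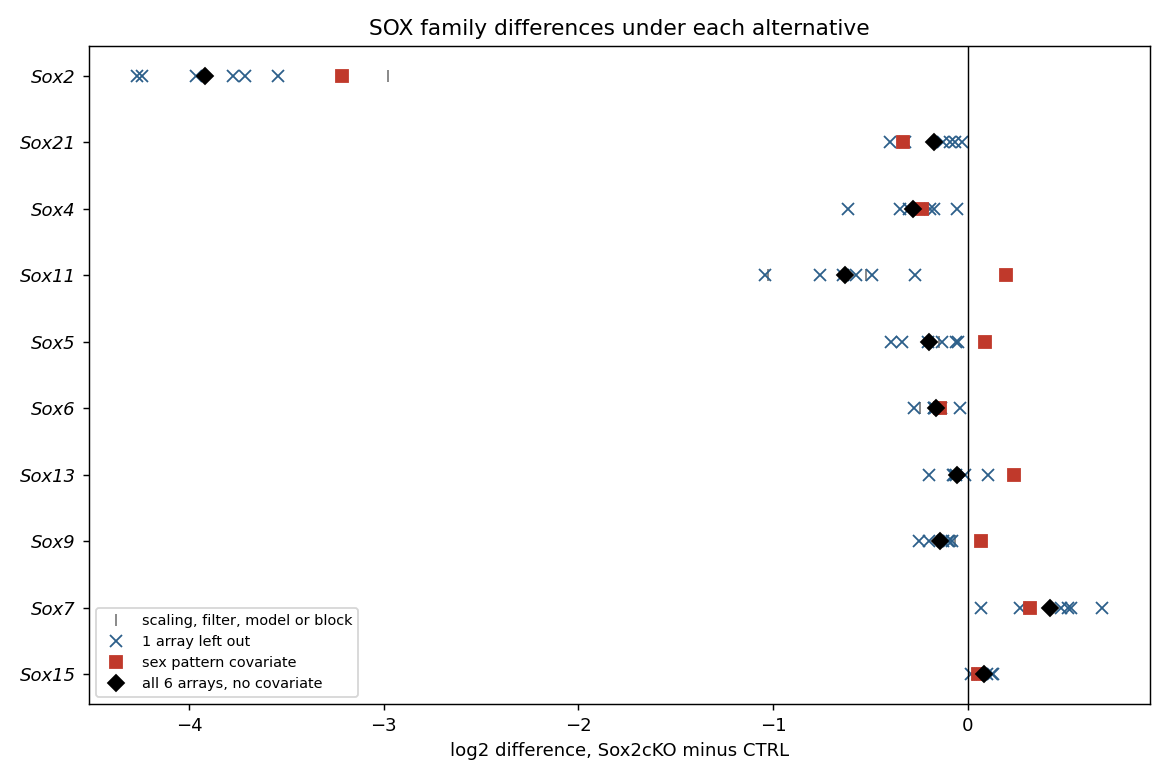
Log2 difference, Sox2cKO minus CTRL, of each SOX member under every alternative setting. Black diamonds use all 6 arrays without a covariate, crosses leave out 1 array, red squares add the sex pattern and grey ticks change scaling, filter, model or block. Sox2 stays between -4.27 and -2.98, and Sox11 moves to 0.20 with the sex pattern.

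Among the remaining SOX genes none passed the test. All 10 had probe sets, 7 were tested, and 3 (Sox1, Sox8 and Sox30) failed the filter. The 7 differences lay between -0.10 (Sox12) and 0.06 (Sox3), with 3 higher, 4 lower and 0 at an unadjusted p under 0.05. Sox10, a marker of melanocytes and Schwann cells, read 6.92 ± 0.14 in Sox2cKO cells and 6.99 ± 0.20 in CTRL cells (SD, n = 3 each). Sry, a Y-linked gene, read 4.97 and 5.32 in the CTRL arrays with the female pattern and 4.97 to 5.25 in the other 4, so this probe set showed no gap between the sex patterns.

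Genes around Sox2 were read for comparison. Sox2ot, the long non-coding RNA whose gene overlaps Sox2, read 6.48, 6.31 and 6.43 in Sox2cKO replicates 1, 2 and 3, against 6.90, 6.07 and 7.18 in CTRL replicates 1, 2 and 3. CTRL arrays lay on both sides of the Sox2cKO arrays, and the difference was -0.31 (95% interval -0.94 to 0.32). Of the 4 nearest protein-coding genes on each side in the RefSeq gene table, 5 could be tested. Ttc14 (0.09), the RNA-binding protein gene Fxr1 (0.05), the phospholipid flippase gene Atp11b (0.18), Dcun1d1 (-0.14) and the carboxylase subunit gene Mccc1 (-0.40) gave no difference past the threshold.

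Genes with the profile most like that of Sox2 were then listed. The likeness used was the mean absolute distance between profiles over the 6 arrays after each was centred on its own mean, so it takes account of size. The nearest 5 genes were the phosphodiesterase gene Pde3b (0.85 log2 units), Xist (1.01), the urate oxidase gene Uox (1.13), the calcitonin gene-related peptide gene Calcb (1.17) and the fatty acid elongase gene Elovl3 (1.20), with a median of 1.96 over all genes. Pde3b read 4.53, 4.97 and 5.47 in Sox2cKO replicates 1, 2 and 3, against 6.33, 7.78 and 7.47 in CTRL replicates 1, 2 and 3, so its groups did not overlap, and like Sox2 it was lowest among CTRL arrays in replicate 1. Sox11 was the nearest member, at 1.64 and rank 122, while Sox7 was the farthest, at 2.17. Since the distance includes the group difference, these ranks are a description.

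Factors known to work with SOX proteins showed no member past the threshold. Of 12 listed, 11 had a probe set and 9 were tested, 4 higher and 5 lower, with a median of -0.03 beside a median near 0 for all genes. The pluripotency factors Pou5f1 and Nanog failed the filter on low values. Pou3f2, a POU factor that binds beside SOX proteins in neural cells, read 5.64, 5.64 and 5.77 in Sox2cKO replicates 1, 2 and 3, against 5.91, 5.96 and 5.91 in CTRL replicates 1, 2 and 3. Its groups did not overlap, which held for 1 of the 9 tested factors and for 5.85% of all genes tested. The Pou3f2 difference was -0.25 (adjusted p = 0.999 in limma). Klf4 (0.18), a regulator of keratinocyte differentiation, and Pax6 (0.18), an eye and neural factor, were the others of smallest unadjusted p.

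Regulators of hair follicle stem cells read lower in 10 of 12 tested genes, with a median of -0.24, where 49.4% of all genes read lower, and 0 passed over all genes. Unadjusted p values lay under 0.05 in 2 of them, both lower in Sox2cKO cells, where 2.68% of all genes lay under it. Nfib, a chromatin regulator of these stem cells, read 9.73, 9.86 and 9.54 in Sox2cKO replicates 1, 2 and 3, against 10.07, 10.49 and 10.24 in CTRL replicates 1, 2 and 3. The keratin gene Krt15 differed by -0.56 and Foxc1 by -0.49. Groups did not overlap in Nfib and Krt15, where this held for 5.85% of all genes. The 2 genes that read higher, named after their values were seen, were Lgr5 (0.67, 95% interval -0.93 to 2.27), a receptor of hair follicle stem cells, and Tbx1 (0.37), and Lgr5 had the largest difference of the list in either direction.

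Cartilage genes that Sox9 activates together with Sox5 and Sox6 were read as targets of the group D and E members. Of 12 listed, 5 failed the filter on low values and 7 were tested. All 7 had small positive differences (0.02 to 0.17, median 0.07), 0 of them past the threshold, where 49.4% of all genes read lower. Signal was low, with means of 5.36 to 5.59 in Sox2cKO cells and 5.30 to 5.56 in CTRL cells beside array medians of 5.42 to 5.46. Col2a1, the type II collagen gene, read 5.52 ± 0.36 in Sox2cKO cells and 5.36 ± 0.29 in CTRL cells, Col11a2 differed by 0.09 and Comp by 0.11.

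Other skin cells that express SOX genes were followed by their markers. Merkel cells express Sox2, and 5 of 8 Merkel cell markers failed the filter, among them Atoh1 and Krt20, while the 3 tested averaged 5.31 to 6.42 in Sox2cKO cells and 5.87 to 6.73 in CTRL cells, with Krt18 at -0.76, Isl1 at -0.23 and Krt8 at -0.09. The dermal papilla also expresses Sox2, and of its 8 markers 5 were tested, with 1 higher (Crabp1, at 1.29) and 4 lower (Sostdc1 at -0.50 and Alpl at -0.10 among them). Their means were 6.92 to 7.30 in Sox2cKO cells and 6.89 to 7.45 in CTRL cells. The part of these cells in the Sox2 values was not tested.

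The means of the remaining marker lists overlapped between groups. Of 10 leukocyte markers 8 were tested, 4 higher and 4 lower, and they averaged 5.98 to 6.46 in Sox2cKO cells and 6.20 to 6.28 in CTRL cells. An unadjusted p under 0.05 in limma was found in 1 of 8, where 2.68% of all genes tested lay under it. Groups did not overlap in 1 of 8, where this held for 5.85% of all genes. Both counts are Cd74, the invariant chain of MHC class II, which read 7.14, 7.70 and 6.59 in Sox2cKO replicates 1, 2 and 3, against 8.80, 7.76 and 8.14 in CTRL replicates 1, 2 and 3 (difference -1.09, adjusted p = 0.999 in limma). Of 8 Schwann cell markers 5 were tested, 2 higher and 3 lower, and they averaged 7.67 to 8.05 in Sox2cKO cells and 7.81 to 7.96 in CTRL cells. Of 7 sebocyte markers 5 were tested, 1 higher and 4 lower, and they averaged 8.04 to 8.72 in Sox2cKO cells and 8.50 to 9.47 in CTRL cells, with Elovl3 at -1.65, and 0 genes of any list passed the adjusted threshold in limma.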

How the data were processed

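The authors deposited a single table of expression values for Affymetrix whole-genome mouse arrays, which read the 3′ end of transcripts. Its range marks the deposited values as log2. R 2.14.0 was used, per the submitters' processing notes. How background was corrected and arrays were normalized is not given in the sources used here. Gene symbols came from GEO's annotation of the array and were checked by Entrez identifier against RefSeq (0 changed). Of 45101 probe sets, 64 were controls, 34945 had 1 gene, 932 several and 9160 none.

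Probe sets above the array's 40th percentile on at least 3 of 6 arrays were tested (23534). Each of 13222 genes was represented by its probe set of highest mean, and the 95% intervals are limma's. Tests were two-sided limma 3.58.1 fits (R 4.3.3) with Benjamini-Hochberg adjustment over all genes or probe sets and a threshold of 0.05, and the procedure was tested on simulated data. Named genes are the members, other SOX genes, up to 3 per list of smallest unadjusted p, 4 neighbours of Sox2 on each side, Sox2ot, the 5 nearest profiles, sort markers and sex-linked genes. The members and lists were chosen with earlier results of these data known.

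The labels do not state what the replicate numbers mark. Same-numbered arrays deviated together (correlation 0.206 to 0.288 for the 3 pairs, each above the level of 0.1), so the number was tried as a block. The main fits and their intervals are unpaired, and the arrays numbered 2 and 3 differ in sex pattern between groups. The series' design text speaks of separate biological experiments. The number of arrays limits precision, and the exact permutation test of 3 against 3 arrays cannot go below 0.1.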

Additional observations from a re-analysis of the deposited data

How the results depend on the processing

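Alternatives covered the probe set rule, the filter, the scaling, low values, the variance model, a replicate block, the sex pattern and leaving out each array, 15 settings in all. The direction held in all 15 for 6 members (Sox2, Sox4, Sox6, Sox7, Sox15 and Sox21). With the sex pattern as a covariate Sox11 turned to 0.20, Sox13 to 0.24, Sox5 to 0.0884 and Sox9 to 0.0691, where the Sox2cKO arrays are set against CTRL replicate 1 alone, and without 1 array Sox13 lay between -0.20 and 0.10. Leaving out 1 array put Sox2 between -4.27 and -3.54 and the genes past the threshold between 0 and 5. Those 5, without CTRL replicate 1, were Sox2, Xist, Eif2s3y, Kdm5d and Uty, and the SOX genes and SOX probe sets past the threshold lay between 0 and 1 each. With the sex covariate 1 gene passed, Ostf1. The cause was not tested. Leaving out 1 array moved Sox11 between -1.04 and -0.27, Sox4 between -0.62 and -0.05, Sox5 between -0.39 and -0.05, Sox6 between -0.27 and -0.04, Sox7 between 0.07 and 0.69, Sox9 between -0.25 and -0.08, Sox15 between 0.02 and 0.13 and Sox21 between -0.40 and -0.03, none of them past the threshold. The mean of its tested probe sets put Sox11 at -1.02. With 16 added on the linear scale Sox2 differed by -2.98. With the replicate block the Sox2 difference of -3.92 had a standard error of 0.35, and the block changed no call. Genes at an unadjusted p under 0.05 numbered 656 with the block, 354 without it and 94 with the sex covariate. Signal near background limits Sox2 in Sox2cKO cells and most Sox5 probe sets.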
